A study of Mus musculus with 24 samples.

Results

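The 10 genes Il7r, Il2rg, Dntt, Rag1, Rag2, Ikzf1, Satb1, Notch1, Ltb and Igj were followed as lymphoid priming genes in blood stem and progenitor cells of mouse bone marrow. They were chosen by symbol, from a list of genes linked to the start of lymphoid development, and each symbol was present once among the 23364 symbols of the count files. All 10 passed the filter on low counts, which left 21456 genes for testing.

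Lymphoid priming is the low expression of B and T lineage genes in stem and progenitor cells before they are committed to a lineage. Signals through the interleukin-7 receptor and Notch1, and nuclear factors such as Ikaros and Satb1, are known to promote the lymphoid fates. Recombination of antigen receptor genes by the Rag proteins, with terminal transferase adding bases at the joints, is completed later, in committed cells.

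The study compared cells with and without Mysm1, a histone H2A deubiquitinase. C57BL/6 mice aged 8-12 weeks, male and female pooled, were used. KO mice were Mysm1 fl/fl CreERT2 and Het mice were Mysm1 fl/+ CreERT2. Both received tamoxifen, 8 doses of 0.15 mg per g over 16 days. Sham mice were Mysm1 fl animals that received corn oil, and the labels do not state whether they carried Cre or which promoter drove it. Lineage-negative Kit+ Sca1+ CD150+ Flt3- cells were sorted as HSC (CD34- CD48-), MPP1 (CD34+ CD48-) and MPP2 (CD34+ CD48+). Each population had 3 KO, 3 Het and 2 Sham libraries, named 1, 2_3 and 4, and Sham has no library 1. Every library came from several pooled mice, so p-values measure the spread between pools.

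Total counts ran from 18823971 to 53196624 per library, and 15740 to 21150 genes were detected. Levels are given as CPM, counts divided by the library's total and put on a common scale by the trimmed mean of M values (TMM). A total of 3 counts, taken as the least level told from 0, was worth 0.0669 to 0.142 CPM, counting error only. Mysm1 itself stood at 76.7 to 121 CPM in KO and 98.5 to 138 CPM in Het libraries. The deletion removes exon 3 alone, so counts over the whole gene do not check it. Cd48 was at 0 to 2.81 CPM in HSC and MPP1 and at 13.8 to 56.9 CPM in MPP2 libraries, as the gates divide them. The library MPP2 Het 2_3 stood apart. Its Flt3 level was 98.0 CPM, against 4.50 to 24.9 CPM in the other MPP2 libraries, although the gate was Flt3-. Mpo, the myeloperoxidase of neutrophil precursors, was at 2189 CPM there and at 42.0 to 184 CPM in the others. Car1, a carbonic anhydrase of red cell precursors, was at 176 CPM in HSC Het 1 and 88.4 CPM in MPP1 Het 1, against 0 to 18.7 CPM in the other HSC and MPP1 libraries.

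Promoter stretches are shown for 5 of the genes on which the results turn, Satb1, Il2rg, Ltb, Notch1 and Igj, to give the sequence at each start. They are the bases just upstream of the start in RefSeq (Igj is listed there as Jchain), each found at 1 place in mm9, written 5′ to 3′ along the gene's strand. All 10 genes had an entry. Bases inside annotated exons were left out, and for Satb1 the most upstream of 5 starts is shown. The RefSeq start of Notch1 lies inside the span of the gene in the GENCODE annotation (chr2:26313423-26372183, minus strand), downstream of the annotated start. Capitals mark matches, on either strand, to the motifs searched.
Satb1 (chr17:51972616-51972865, minus strand): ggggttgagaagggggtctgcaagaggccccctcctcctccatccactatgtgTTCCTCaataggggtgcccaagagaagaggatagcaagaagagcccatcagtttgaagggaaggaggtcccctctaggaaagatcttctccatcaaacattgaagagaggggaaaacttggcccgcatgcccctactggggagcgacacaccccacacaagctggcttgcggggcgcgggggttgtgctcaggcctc
Il2rg (chrX:98463595-98463844, minus strand): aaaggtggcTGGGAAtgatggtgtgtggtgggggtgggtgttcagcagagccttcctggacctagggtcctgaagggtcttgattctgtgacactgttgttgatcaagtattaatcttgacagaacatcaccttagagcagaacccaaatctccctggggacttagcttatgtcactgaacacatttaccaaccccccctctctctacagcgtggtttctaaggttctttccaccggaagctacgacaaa
Ltb (chr17:35331202-35331383, plus strand): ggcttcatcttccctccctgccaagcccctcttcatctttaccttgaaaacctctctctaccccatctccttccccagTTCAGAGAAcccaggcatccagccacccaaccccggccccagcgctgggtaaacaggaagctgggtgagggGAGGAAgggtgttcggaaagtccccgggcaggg
Notch1 (chr2:26359345-26359592, minus strand): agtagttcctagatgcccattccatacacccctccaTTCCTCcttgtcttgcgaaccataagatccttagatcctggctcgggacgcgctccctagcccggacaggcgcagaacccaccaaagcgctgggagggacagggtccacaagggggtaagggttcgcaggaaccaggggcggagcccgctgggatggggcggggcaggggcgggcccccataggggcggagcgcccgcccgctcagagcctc
Igj (chr5:88956923-88957172, minus strand): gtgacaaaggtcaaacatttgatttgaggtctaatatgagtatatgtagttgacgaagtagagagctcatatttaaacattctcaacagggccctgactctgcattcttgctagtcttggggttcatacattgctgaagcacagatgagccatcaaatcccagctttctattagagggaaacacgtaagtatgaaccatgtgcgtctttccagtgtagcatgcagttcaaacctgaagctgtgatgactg

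The motifs were TGGGAA (a core bound by Ikaros and RBPJ), GAGGAA (PU.1), CAGCTG and CACCTG (E-box forms), TTCNNNGAA (STAT) and TATAAA, and no marked matches overlap. The Satb1 stretch has GAGGAA on the opposite strand, 197 to 192 bases upstream, and Notch1 has it likewise at 214 to 209. Il2rg has TGGGAA at 241 to 236. Ltb has TTCNNNGAA at 172 to 164 and GAGGAA at 101 to 96, with a CACCTG on the opposite strand in the exonic bases not shown. The Igj stretch holds none of these letters. Among 32851 promoter windows of 250 bases in the table, TGGGAA was in 21.6%, GAGGAA in 23.3%, CACCTG in 17.2%, CAGCTG in 13%, TATAAA in 12.4% and TTCNNNGAA in 7.02%. These matches are a description of the letters, not of binding.

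In the control libraries, Het and Sham together, MPP2 cells had less Ltb, Notch1 and Il2rg RNA and more Igj and Ikzf1 RNA than HSC. Ltb was 17.1-fold lower and Igj 29.1-fold higher, with Notch1 3.20-fold lower, Il2rg 1.69-fold lower and Ikzf1 1.71-fold higher. All 5 also passed between MPP2 and MPP1, with the same signs, and none of the 10 passed between MPP1 and HSC. Both MPP2 comparisons use the same 5 MPP2 libraries. Rag1, Rag2, Dntt, Il7r and Satb1 passed none of the 3 population tests. For Satb1 this turned on the libraries that stand apart: the log2 difference between MPP2 and HSC was 0.05, and -0.72 with an adjusted p of 0.0491 without HSC Het 1, MPP1 Het 1 and MPP2 Het 2_3. That of Dntt was 1.58 with and -2.44 without MPP2 Het 2_3 (adjusted p = 0.218).

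These calls come from edgeR's quasi-likelihood test with Benjamini-Hochberg adjustment over all 21456 genes, at an adjusted p under 0.05. Between MPP2 and HSC 29.4% of all genes passed (17.1% higher and 12.4% lower in MPP2), and 5 of the 10 did, 2 higher and 3 lower. Between MPP2 and MPP1 23% of all genes passed (13.2% higher and 9.84% lower), and again 5 of the 10. Between MPP1 and HSC 0.597% of all genes passed, and 10.6% had an unadjusted p under 0.05. For the 10 genes edgeR gave 0 calls and 1 such unadjusted p (Igj), and DESeq2 and limma-trend also gave 0. The median log2 difference of the 10 genes was -0.14 for MPP2 minus HSC, against -0.19 over all genes, and -0.33 for MPP2 minus MPP1, against -0.34. Both rest on MPP2 Het 2_3: without it they were -0.86, against -0.26 over all genes, and -1.13, against -0.44.

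**Figure D1:**
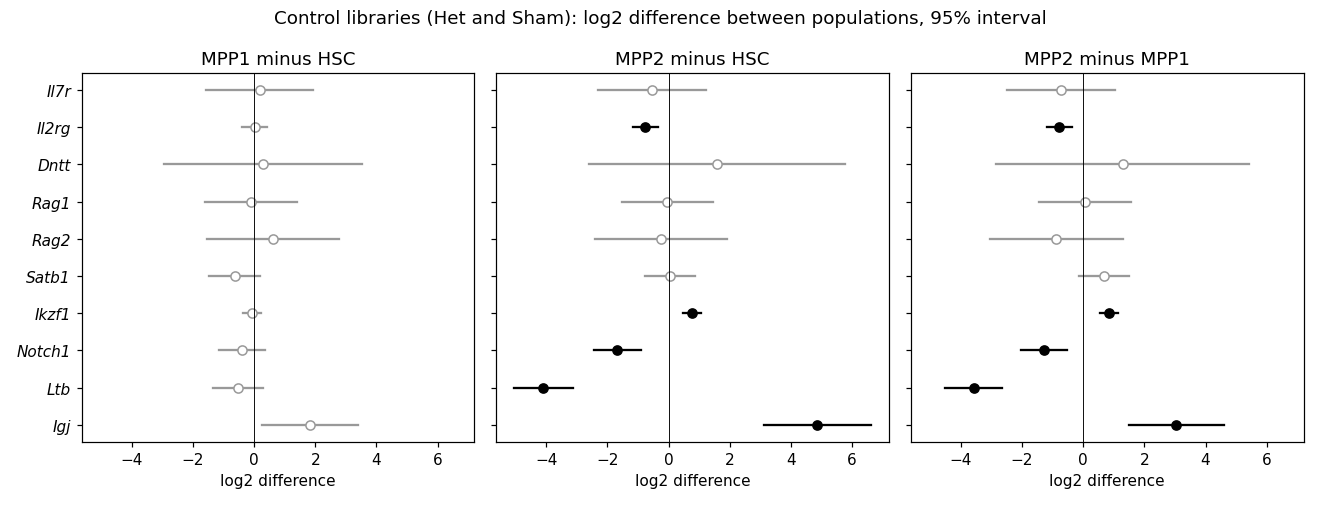
Log2 difference (x axis) of each gene between populations in the 5 control libraries of each, with points at the estimate, lines for the 95% interval and filled black points for an adjusted p under 0.05. Ltb, Notch1 and Il2rg lie left of 0 and Ikzf1 and Igj right of 0 in both panels with MPP2, and no point is filled for MPP1 minus HSC.

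Between KO and Het, Satb1 RNA fell and Il2rg RNA rose in MPP2, and no other of the 10 genes passed in any population. Satb1 was 6.48-fold lower and Il2rg 2.23-fold higher in KO MPP2. In MPP2 0.415% of all genes passed, 0.378% higher and 0.0373% lower in KO. For HSC the share of all genes that passed was 0.615% and for MPP1 0.0559%, and the 10 genes gave 0 calls with edgeR, DESeq2 and limma-trend in both. An unadjusted p under 0.05 was found for 0 of the 10 in HSC, 1 in MPP1 (Il2rg) and 5 in MPP2 (Satb1, Il2rg, Ltb, Igj and Dntt), against 14.5%, 8.67% and 5.63% of all genes. The Satb1 call rests on the library that stands apart: without MPP2 Het 2_3 its change was -1.29 ± 0.40 on the log2 scale, with an adjusted p of 0.263. The Il2rg change without that library was 1.25 ± 0.30, with an adjusted p of 0.0544. Satb1 also missed the threshold without MPP2 KO 1 (adjusted p = 0.17) or MPP2 KO 2_3 (adjusted p = 0.137). Il2rg missed it without any 1 of the 6 MPP2 KO and Het libraries except KO 4 (adjusted p of 0.0537 to 0.51).

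In MPP2 the KO and Het libraries did not overlap for 4 of the 10 genes, Il2rg and Ltb higher in KO and Satb1 and Igj lower, where 14.7% of all genes did not overlap, 9.06% higher and 5.6% lower. In HSC they did not overlap for Il2rg (higher in KO) and Satb1 (lower), against 11.6% of all genes, 7.16% higher and 4.48% lower. In MPP1 they did not overlap for Dntt, Rag2 and Igj, all lower in KO, against 21.7% of all genes, 8.49% higher and 13.2% lower. The median log2 change of the 10 genes was -0.47 in HSC, -0.35 in MPP1 and -1.33 in MPP2, against 0.03, -0.11 and -0.06 over all genes. The MPP2 median rests on 1 library: without MPP2 Het 2_3 it was 0.05, against 0.01 over all genes.

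**Figure D2:**
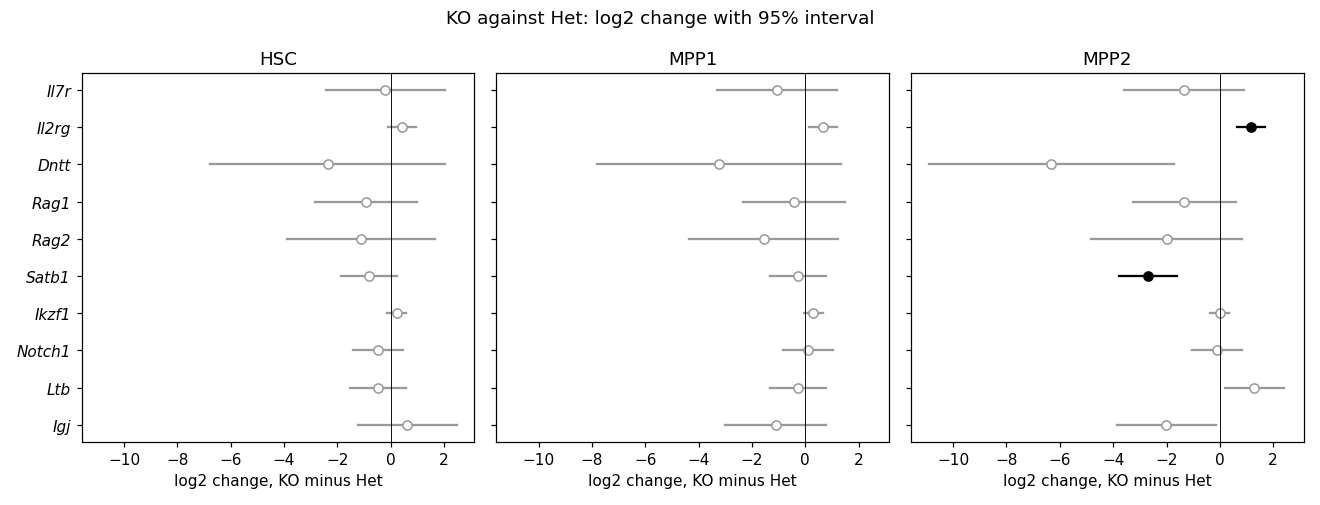
Log2 change of each gene in KO minus Het (x axis), by population, with the 95% interval as a line and filled black points for an adjusted p under 0.05. Filled points stand only at Satb1 (-2.70) and Il2rg (1.16) in MPP2, and the intervals of Dntt are the widest in each panel.

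Against Sham, none of the 10 genes passed with edgeR. The share of all genes that passed was 2.28% in HSC, 0.121% in MPP1 and 0.629% in MPP2. Among the 10, an unadjusted p under 0.05 was found for Satb1 and Igj in HSC, Ikzf1 in MPP1 and Il2rg and Notch1 in MPP2, against 14.9%, 10.4% and 5.73% of all genes. DESeq2 called 1 in HSC (Igj) and 1 in MPP2 (Il2rg), and limma-trend 0 in each population. KO and Sham libraries of MPP1 did not overlap for 9 of the 10, where 38.6% of all genes did not, 18.6% higher and 20% lower in KO. Il7r, Dntt, Rag2, Satb1, Ltb, Notch1 and Igj were lower in KO, and Il2rg and Ikzf1 higher. The median log2 change of the 10 in MPP1 was -0.82, against -0.11 over all genes. In HSC 3 did not overlap, Igj higher and Satb1 and Notch1 lower in KO, against 26% of all genes (15.8% higher and 10.2% lower), with a median of -0.54 against 0.05. In MPP2 5 did not overlap, Dntt, Il2rg, Ltb and Notch1 higher and Satb1 lower, against 23.4% (13.6% higher and 9.87% lower), and the median was 0.30 against 0.10. The comparisons with Het and with Sham share their KO libraries.

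Between Het and Sham, edgeR gave 0 calls (0%) among all genes in each population. The shares of all genes with an unadjusted p under 0.05 were 6.92% for HSC, 0.965% for MPP1 and 5.32% for MPP2. Of the 10 genes these were Igj in HSC and Dntt, Satb1 and Notch1 in MPP2. Without MPP2 Het 2_3 the log2 differences in MPP2 moved from 9.37 to 1.35 for Dntt, from 1.81 to 0.40 for Satb1 and from 1.35 to 0.34 for Notch1.

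The plot of the levels in all 24 libraries shows the spread behind these tests. In bulk samples, fewer cells of a type and less RNA per cell cannot be told apart.

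**Figure D3:**
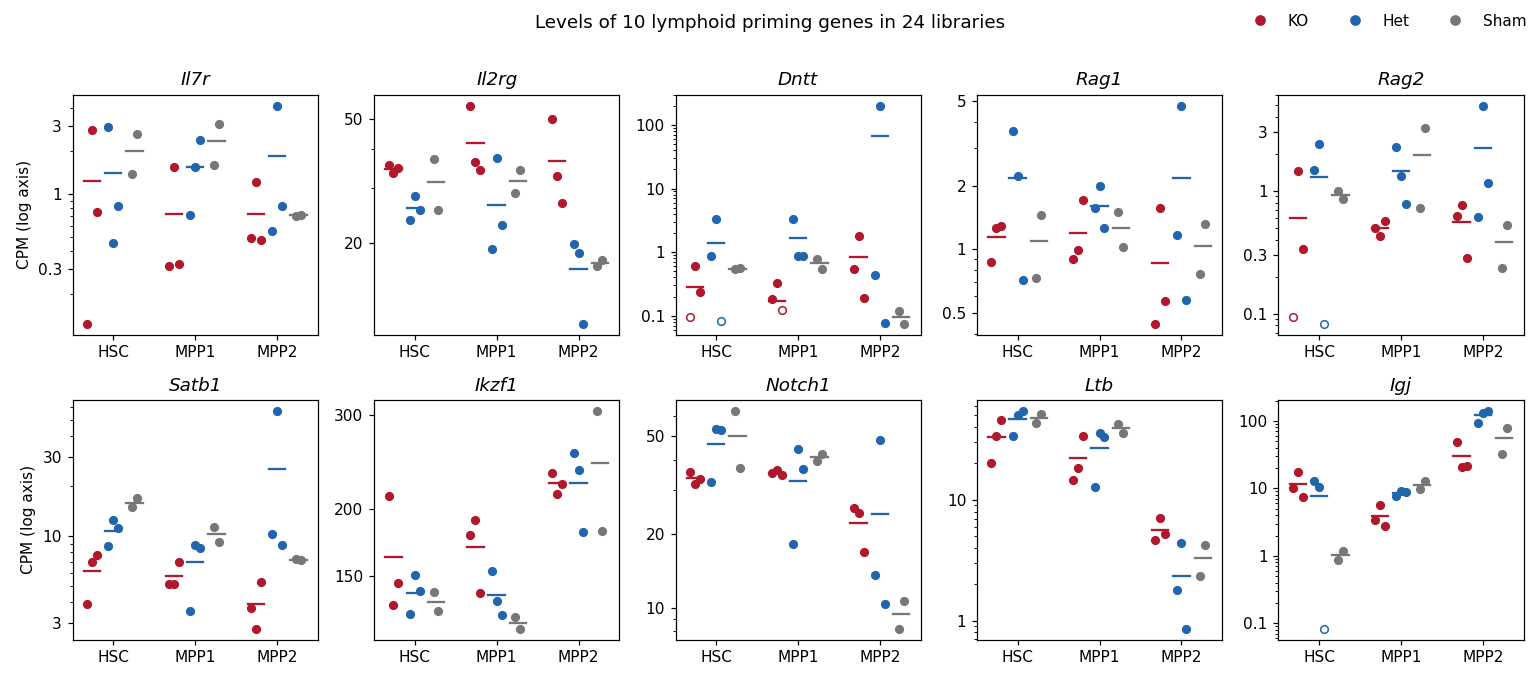
Level of each gene in CPM (y axis, log scale, with its own range per gene) in HSC, MPP1 and MPP2, with 1 point per library, KO in red, Het in blue and Sham in grey, and a bar at the group's mean. Open circles are libraries at 0, drawn at the level of 3 counts; Ltb is lowest and Igj highest in MPP2, and 1 Het library of MPP2 lies far above the rest for Dntt and Satb1.

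Il2rg encodes the common gamma chain, the subunit shared by the receptors for interleukins 2, 4, 7, 9, 15 and 21. It lies at chrX:98459717-98463594 (minus strand, mm9), where the predicted gene Gm20489 overlaps it on the same strand, so reads may be split between them. In MPP2 it was at 49.9, 32.8 and 26.9 CPM in KO, 19.7, 18.5 and 11.0 CPM in Het and 16.8 and 17.6 CPM in Sham. Every KO library of MPP2 was above all 5 control libraries. The share of all genes with KO apart from Het and Sham at once was not computed, for this gene or those below. Its KO minus Het change was 1.16 ± 0.26 (SE) on the log2 scale, with a 95% interval of 0.63 to 1.68 and an adjusted p of 0.0293 from edgeR's quasi-likelihood test. Against Sham it was 1.09 ± 0.29, with an adjusted p of 0.096.

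In HSC, Il2rg was at 35.5, 33.6 and 34.7 CPM in KO, 23.6, 28.2 and 25.5 CPM in Het and 37.1 and 25.5 CPM in Sham. KO lay above Het but within the range of Sham, and the change from Het was 0.42 ± 0.25 (adjusted p = 0.448). In MPP1 it was at 55.3, 36.3 and 34.4 CPM in KO, 19.0, 37.5 and 22.8 CPM in Het and 28.8 and 34.2 CPM in Sham. There KO and Het overlapped through a single Het library, and the change was 0.67 ± 0.25 (adjusted p = 0.493, unadjusted 0.0135). Among controls, Il2rg was lower in MPP2 than in HSC by a log2 difference of -0.76 ± 0.20 (adjusted p = 0.00402) and than in MPP1 by -0.78 ± 0.20 (adjusted p = 0.0045). The KO levels in MPP2 lay within the range of the HSC and MPP1 libraries, and 4 of the 5 MPP2 control levels lay below every HSC and MPP1 library. The difference between the KO change in MPP2 and that in HSC was 0.73 ± 0.36 and did not pass (adjusted p = 0.686).

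Il7r encodes the interleukin-7 receptor alpha chain, which pairs with the common gamma chain and on which early B and T cell growth depends. It lies at chr15:9435916-9459631 (minus strand). Its level was 0.125 to 2.94 CPM in HSC, 0.315 to 3.07 CPM in MPP1 and 0.475 to 4.14 CPM in MPP2, and KO, Het and Sham ranges overlapped in HSC and MPP2. In MPP1 it was at 0.315, 1.55 and 0.326 CPM in KO, 0.714, 1.55 and 2.38 CPM in Het and 1.60 and 3.07 CPM in Sham. The KO libraries lay below both Sham libraries, and 2 of the 3 were below every Het library. Its log2 changes from Het to KO were -0.20 ± 1.09 in HSC, -1.08 ± 1.10 in MPP1 and -1.33 ± 1.10 in MPP2, with adjusted p of 0.989, 0.743 and 0.993. Without MPP2 Het 2_3 the last was 0.07 ± 1.23, and its sign turned.

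Rag1 and Rag2 encode the recombinase that cuts antigen receptor genes, and stand side by side on chromosome 2 (Rag1 at chr2:101478439-101489658, minus strand, and Rag2 at chr2:101464875-101472685, plus strand). B230118H07Rik overlaps both in the annotation, on the strand of Rag1, so reads there are uncertain. Rag1 was at 0.446 to 4.78 CPM and Rag2 at 0 to 4.96 CPM over the 24 libraries, and the highest library for each was MPP2 Het 2_3. Rag2 was at 0 in HSC KO 1 and HSC Het 4. In MPP1, Rag2 was at 0.494, 0.429 and 0.570 CPM in KO, 2.29, 1.32 and 0.779 CPM in Het and 0.719 and 3.23 CPM in Sham. All KO libraries of MPP1 were below all 5 control libraries, and the KO minus Het change of -1.55 ± 1.37 had an adjusted p of 0.703.

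For Rag1 the KO and Het ranges overlapped in every population, with log2 changes of -0.93 ± 0.93 in HSC, -0.43 ± 0.93 in MPP1 and -1.33 ± 0.94 in MPP2. Without MPP2 Het 2_3 the MPP2 changes were -0.03 ± 1.06 for Rag1 and -0.66 ± 1.54 for Rag2.

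Dntt encodes terminal deoxynucleotidyl transferase, the enzyme that adds bases at recombination joints, and lies at chr19:41103765-41134013 (plus strand). In MPP2 it was at 0.535, 1.79 and 0.190 CPM in KO, 0.432, 202 and 0.0754 CPM in Het and 0.118 and 0.0749 CPM in Sham. MPP2 Het 2_3 alone, with 5416 counts, made the Het mean, and every other MPP2 library was below 2 CPM. The KO minus Het log2 change of -6.32 ± 2.16 (adjusted p = 0.537) became 1.71 ± 1.92 without that library, so its sign rests on it. In MPP1, Dntt was at 0.180, 0.33 and 0 CPM in KO, 3.30, 0.870 and 0.866 CPM in Het and 0.785 and 0.551 CPM in Sham. All KO libraries of MPP1 lay below all control libraries, at 0 to 10 counts each, and the change of -3.23 ± 2.14 did not pass (adjusted p = 0.638). In HSC the range was 0 to 0.609 CPM in KO and 0 to 3.29 CPM in Het.

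In MPP1, the summed levels of marker lists of other blood cells stand beside the levels of Dntt, Rag2 and Igj. The B cell list (10 genes, none at 0 throughout the KO group) summed to 28.3 to 41.0 CPM in KO, 52.7 to 57.4 CPM in Het and 44.3 to 51.3 CPM in Sham. The T and NK cell list (12 genes) summed to 30.3 to 41.3 CPM in KO, 43.0 to 46.6 CPM in Het and 34.4 to 41.9 CPM in Sham. The list of plasmacytoid dendritic cells (6 genes) summed to 9.12 to 31.5 CPM in KO, 30.6 to 32.0 CPM in Het and 20.3 to 30.2 CPM in Sham. The granulocyte list (10 genes) summed to 80.0 to 172 CPM in KO, 149 to 479.6 CPM in Het and 53.6 to 1162 CPM in Sham, with 10 of 10 log2 changes from Het below 0 (median -1.71). None of these 38 genes passed the test between KO and Het. The plasma cell list (6 genes, none past that test) overlapped between the groups. It summed to 7.57 to 12.4 CPM in KO, 9.26 to 11.8 CPM in Het and 11.1 to 11.3 CPM in Sham. The part of the genes of these lists in the levels of Dntt, Rag2 and Igj was not tested.

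Ikzf1 encodes Ikaros, a zinc finger factor needed for lymphoid development, and lies at chr11:11585006-11672929 (plus strand), with Gm11999 and Gm12000 on the opposite strand. It had the highest CPM of the 10 genes in every library. In HSC it was at 212, 132 and 146 CPM in KO, 128, 151 and 141 CPM in Het and 139.9 and 129 CPM in Sham. In MPP1 the values were 179, 191 and 139.6 CPM in KO, 153, 135 and 127 CPM in Het and 126 and 119.5 CPM in Sham. In MPP2 they were 234, 214 and 223 CPM in KO, 255, 237 and 181 CPM in Het and 306 and 182 CPM in Sham. KO and Het overlapped in each population, and the MPP2 control libraries lay above all control libraries of HSC and MPP1.

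The log2 difference of Ikzf1 between control MPP2 and HSC was 0.77 ± 0.14 (adjusted p = 6.63e-05), and between MPP2 and MPP1 0.84 ± 0.14 (adjusted p = 4.91e-05). Its KO minus Het change had the narrowest intervals of the 10 genes, -0.14 to 0.59 in HSC, -0.07 to 0.66 in MPP1 and -0.37 to 0.36 in MPP2. A change of 2-fold, 1 on the log2 scale, lies outside all 3 intervals.

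Satb1 encodes a chromatin organiser of thymocytes and early lymphoid progenitors, and lies at chr17:51875512-51972615 (minus strand). In MPP2 it was at 3.66, 2.75 and 5.29 CPM in KO, 10.2, 56.9 and 8.80 CPM in Het and 7.31 and 7.12 CPM in Sham. Every KO library was below all 5 controls, and MPP2 Het 2_3 was far above the other Het libraries. Its change from Het was -2.70 ± 0.53, with a 95% interval of -3.80 to -1.59 and an adjusted p of 0.0166. Against Sham, which holds no such library, it was -0.89 ± 0.56 (adjusted p = 1).

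In HSC, Satb1 was at 3.87, 6.98 and 7.64 CPM in KO, 8.73, 12.4 and 11.2 CPM in Het and 14.9 and 16.9 CPM in Sham. The KO libraries were again below all controls, and Het lay between KO and Sham. The changes of -0.81 ± 0.51 from Het (adjusted p = 0.481) and -1.36 ± 0.55 from Sham (adjusted p = 0.219) did not pass. In MPP1 it was at 5.14, 5.15 and 7.01 CPM in KO, 3.51, 8.83 and 8.49 CPM in Het and 11.2 and 9.20 CPM in Sham. There KO lay below Sham but overlapped Het, with a change of -0.27 ± 0.50. MPP1 Het 1, the low Het library, is 1 of those high in Car1. The KO change in MPP2 minus that in MPP1 was -2.43 ± 0.72, with an unadjusted p of 0.00273 and an adjusted p of 1, and -1.02 ± 0.54 without MPP2 Het 2_3.

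**Figure D4:**
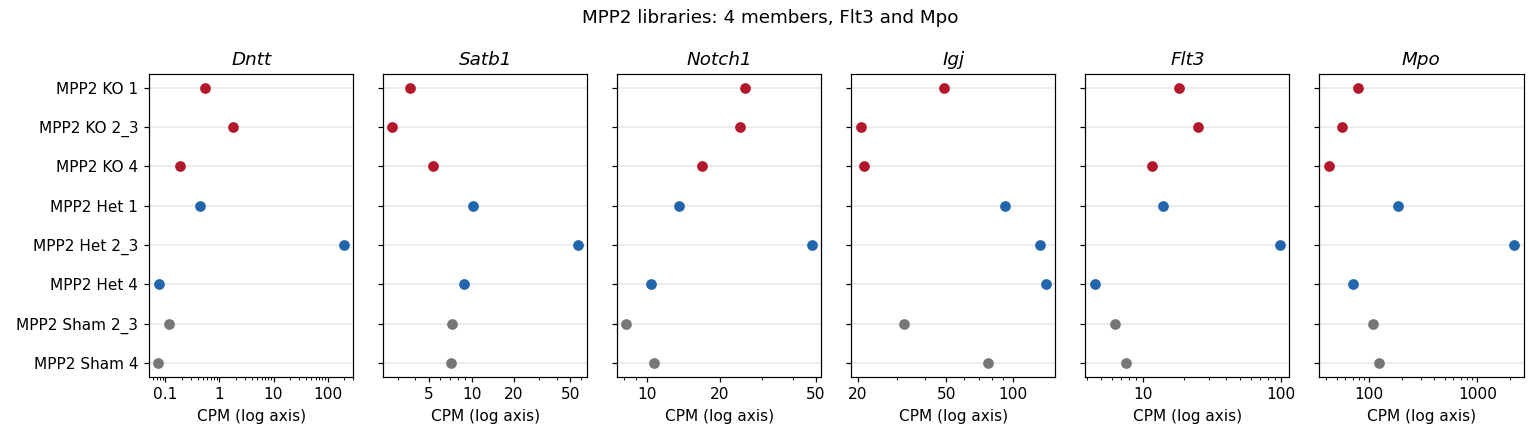
Levels in CPM (x axis, log scale) of Dntt, Satb1, Notch1, Igj, Flt3 and Mpo in the 8 MPP2 libraries (rows), KO in red, Het in blue and Sham in grey. Het 2_3 is the highest library for Dntt (202), Satb1 (56.9), Notch1 (48.3), Flt3 (98.0) and Mpo (2189), but lies among the Het libraries for Igj (133).

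Notch1 encodes the receptor whose signal directs progenitors to the T lineage, and lies at chr2:26313423-26372183 (minus strand), with 0610009E02Rik and Gm13568 on the opposite strand. In HSC it was at 35.6, 31.7 and 33.2 CPM in KO, 32.6, 53.4 and 52.8 CPM in Het and 63.1 and 36.8 CPM in Sham. In MPP1 it was at 35.2, 36.4 and 34.5 CPM in KO, 18.1, 44.0 and 36.5 CPM in Het and 39.6 and 42.2 CPM in Sham. In MPP2 it was at 25.3, 24.3 and 16.8 CPM in KO, 13.6, 48.3 and 10.3 CPM in Het and 8.19 and 10.7 CPM in Sham. KO libraries lay close together in HSC and MPP1, and in MPP2 they were above every control library but Het 2_3.

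The control difference of Notch1 between MPP2 and HSC was -1.68 ± 0.36 (adjusted p = 0.00164), and between MPP2 and MPP1 -1.29 ± 0.36 (adjusted p = 0.0148), with MPP2 Het 2_3 inside the HSC range. Without it these were -2.18 ± 0.23 and -1.79 ± 0.22. The KO minus Het change in MPP2 was -0.12 ± 0.45 (adjusted p = 0.997) with that library and 0.89 ± 0.29 (adjusted p = 0.358) without it, and the sign turned. The change from Sham in MPP2 was 1.23 ± 0.52 (adjusted p = 0.74, unadjusted 0.0313). In HSC and MPP1 the changes from Het were -0.47 ± 0.44 and 0.11 ± 0.44.

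Ltb encodes lymphotoxin beta, a membrane ligand of the tumour necrosis factor family used in building lymphoid organs, and lies at chr17:35331384-35333265 (plus strand). In HSC it was at 20.1, 34.0 and 45.4 CPM in KO, 33.5, 50.7 and 54.5 CPM in Het and 43.5 and 50.9 CPM in Sham. In MPP1 it was at 14.7, 18.4 and 34.0 CPM in KO, 12.8, 35.5 and 32.9 CPM in Het and 42.5 and 36.0 CPM in Sham. In MPP2 it was at 4.64, 7.06 and 5.17 CPM in KO, 1.79, 4.37 and 0.855 CPM in Het and 2.36 and 4.20 CPM in Sham. All MPP2 libraries lay below all HSC and MPP1 libraries, and within MPP2 all KO libraries lay above all controls.

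The control difference of Ltb was -4.09 ± 0.45 between MPP2 and HSC (adjusted p = 2.2e-06) and -3.57 ± 0.44 between MPP2 and MPP1 (adjusted p = 1.95e-05). The KO minus Het change in MPP2 was 1.29 ± 0.52 (adjusted p = 0.758, unadjusted 0.0256) and 2.10 ± 0.52 without MPP2 Het 2_3 (adjusted p = 0.124). In HSC and MPP1 it was -0.48 ± 0.49 and -0.28 ± 0.49, with overlapping libraries. The difference between the KO change in MPP2 and that in HSC was 1.77 ± 0.72 (adjusted p = 0.615, unadjusted 0.0249).

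Igj encodes the joining chain of polymeric immunoglobulins, best known from plasma cells, and lies at chr5:88949537-88956916 (minus strand). In HSC it was at 10.1, 17.7 and 7.46 CPM in KO, 12.7, 10.4 and 0 CPM in Het and 0.870 and 1.19 CPM in Sham. In MPP1 it was at 3.41, 5.68 and 2.77 CPM in KO, 7.79, 9.25 and 8.75 CPM in Het and 9.68 and 13.1 CPM in Sham. In MPP2 it was at 48.9, 20.6 and 21.3 CPM in KO, 92.3, 133 and 141 CPM in Het and 32.2 and 77.4 CPM in Sham. KO lay below Het in MPP1 and MPP2, while in HSC KO lay above Sham and overlapped Het, whose library 4 was at 0.

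The control difference of Igj was 4.86 ± 0.82 between MPP2 and HSC (adjusted p = 0.000218) and 3.05 ± 0.73 between MPP2 and MPP1 (adjusted p = 0.00576). It was 1.82 ± 0.74 between MPP1 and HSC (adjusted p = 0.386, unadjusted 0.0264). Changes from Het to KO were 0.62 ± 0.87 in HSC, -1.12 ± 0.88 in MPP1 and -2.01 ± 0.87 in MPP2, with adjusted p of 0.855, 0.686 and 0.837. The change from Sham in HSC was 3.50 ± 1.18 (adjusted p = 0.136). The plasma cell list (Sdc1, Mzb1, Tnfrsf17, Prdm1, Irf4, Pou2af1) summed to 8.14 to 19.2 CPM in Het and 10.1 to 11.0 CPM in Sham HSC. In MPP2 it summed to 8.50 to 12.7 CPM in KO, 10.4 to 21.2 CPM in Het and 8.69 to 9.28 CPM in Sham. Between control MPP2 and HSC its median log2 difference was 0.14, with 4 of 6 genes above 0, and between KO and Het MPP2 -1.12, with 5 of 6 below 0. No gene of the list passed in either, and its part in the level of Igj was not tested.

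Levels of sort markers, Car1 and granulocyte genes in MPP2 stand beside those of Il2rg, Ltb, Satb1 and Igj. Car1 was at 98.7, 121 and 189 CPM in KO, 401, 248 and 299 CPM in Het and 647 and 286 CPM in Sham, with every KO library below all controls. The granulocyte list (10 genes) summed to 123 to 171 CPM in KO, 203 to 3518 CPM in Het and 234 to 314 CPM in Sham. Among 8 sort markers, Slamf1 (CD150) and Cd48 were higher in every KO than every Het library, where 9.06% of all genes were, with log2 changes of 0.79 ± 0.21 (adjusted p = 0.118) and 1.19 ± 0.77 (adjusted p = 0.993). Procr, a marker of stem cells, differed on the log2 scale by 1.64 ± 0.47 (adjusted p = 0.28) and Ly6a (Sca1) by 1.26 ± 0.40 (adjusted p = 0.326), and 0 of the 8 passed. The part of the cells' makeup in the levels of the 10 genes was not tested.

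The difference of the KO minus Het change between populations passed for 0 of the 10 genes by edgeR. Of all genes, 0% passed for MPP1 minus HSC, 0.0326% for MPP2 minus HSC and 0% for MPP2 minus MPP1. An unadjusted p under 0.05 was found for 0, 3 (Satb1, Ltb and Igj) and 2 (Satb1 and Ltb) of the 10, against 4.87%, 7.29% and 2.39% of all genes. DESeq2 and limma-trend also called 0 of the 10 in all 3.

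Partners of the 10 genes were read from 5 lists, first between KO and Het, where 0.615% of all genes passed in HSC. Of 24 lymphoid transcription factors tested, Ets1 fell in KO HSC, from a mean of 38.8 to 17.7 CPM (log2 change -1.13 ± 0.25, adjusted p = 0.0254). Of 15 receptor and signalling partners of Il7r and Il2rg, Cish, a feedback inhibitor of STAT5 signalling, fell in KO HSC, from 19.8 to 6.49 CPM (-1.61 ± 0.32, adjusted p = 0.0143). Of 13 genes of recombination and end joining, Hmgb2, a DNA-bending cofactor of the Rag proteins, rose in KO HSC, from 448 to 924 CPM (1.04 ± 0.24, adjusted p = 0.0414). For each of the 3, no KO library overlapped a Het or Sham library. Of all genes in HSC, 11.6% did not overlap between KO and Het and 26% between KO and Sham. The 3 were picked by a test on these libraries, so the lack of overlap adds no support. Between KO and Het, none of 28 Notch pathway genes and none of 12 lymphotoxin and NF-kB genes passed in HSC by edgeR. At an unadjusted p under 0.05 these were 2 and 1, shares below the 14.5% of all genes. None of the 92 genes passed between KO and Het in MPP1 or MPP2.

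Against Sham, Ets1, Cish and Hmgb2 also passed in HSC, and 3 more genes rose there, where 2.28% of all genes passed. These were Prkdc, the catalytic subunit of DNA-dependent protein kinase (1.09 ± 0.25, adjusted p = 0.02), Adam10, a protease that cleaves Notch (0.82 ± 0.16, adjusted p = 0.00726), and Chuk, the kinase IKK alpha (0.82 ± 0.20, adjusted p = 0.0258). In MPP2, where 0.629% of all genes passed, Gata3, a factor of T cell development, rose from 1.12 and 1.87 CPM in Sham to 8.61, 5.93 and 6.69 CPM in KO (2.25 ± 0.39, adjusted p = 0.00258). No KO library of these 4 overlapped a Sham library, where 26% of all genes in HSC and 23.4% in MPP2 did not overlap. The 4 were picked by a test on the same libraries, so the lack of overlap adds no support. None of the 92 genes passed against Sham in MPP1.

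Between control MPP2 and HSC, where 17.1% of all genes were higher and 12.4% lower, 3 of the 24 transcription factors were higher and 6 lower, among them Gata3 (-2.75 ± 0.27) and Foxo1 (-1.20 ± 0.23) lower and Tcf3 (0.82 ± 0.12) higher. Of the 15 receptor partners 1 was higher and 5 lower, with Il4ra at -1.64 ± 0.16 and Jak3 at -0.79 ± 0.14. Of the 13 recombination genes 6 were higher and 2 lower, with Hmgb2 at 2.39 ± 0.20 and Prkdc at 1.06 ± 0.17. Of the 28 Notch pathway genes 4 were higher and 5 lower, and of the 12 lymphotoxin genes 1 and 4, with Mfng at -1.77 ± 0.17 and Map3k14 at -1.66 ± 0.25. The list medians were -0.31, -0.79, 0.61, -0.07 and -0.37, against -0.19 over all genes.

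Ordered by CPM per kilobase of the length given in the files, the control medians in HSC ran from Ltb at 46.3 through Il2rg at 15.8 and Ikzf1 at 13.9 to Notch1 at 5.57, with the other 6 genes below 0.6. Il2rg and Ikzf1 did not differ beyond their ranges, and neither did Notch1 and Igj, which ran from 0 to 6.05. In MPP1, Ltb (32.4), Il2rg (17.9) and Ikzf1 (12.6) overlapped in turn, followed by Igj at 4.40 and Notch1 at 4.18, which overlapped. In MPP2, Igj came first at 43.9 and overlapped Ikzf1 at 23.5. Then came Il2rg at 10.9, Ltb at 2.15 and Notch1 at 1.13, and Dntt was last at 0.0281. There Ltb overlapped Notch1, and Notch1 overlapped Satb1. With the exon bases of the annotation as length (Ikzf1 5919 in place of 10065, Il2rg 2387 in place of 1612), Ikzf1 stood above Il2rg in HSC and MPP1. The order of lower genes also moved. Satb1 (9374 in place of 24908) was then at 1.33 in HSC, above Igj, and stood above Notch1 in MPP2.

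Across the 24 libraries, which include differences between populations, the genes closest to Ltb by Spearman's rho of log2 CPM were Afap1l1 (0.98), Erg (0.96) and Cyp4v3 (0.96). Closest to Notch1 were Bace1 (0.94), Atp10a (0.91) and St8sia4 (0.90), and to Igj Atp1b2 (0.86), Kel (0.86) and Fpgs (0.85). Asxl1 (0.93) and Edem3 (0.92) were among the closest to Ikzf1. Closest to Il2rg were Lcp1 (0.89), Nckap1l (0.83) and Eltd1 (0.83), and to Satb1 Dok3 (0.81), Amigo2 (0.80) and Spata1 (0.77). Among the 10 genes, Ltb went with Notch1 (0.76) and against Igj (-0.77) and Ikzf1 (-0.74). Dntt went with Rag2 (0.79) and Rag1 (0.63), at levels of few counts. For the genes of few counts, the closest were Ggps1 (0.90), Rxrg (0.89) and Clec4a2 (0.88) to Il7r, and Abca13 (0.88), Mup13 (0.88) and Crispld2 (0.87) to Dntt. They were Pira6 (0.84), Lifr (0.75) and Col6a3 (0.74) to Rag1, and Tnxb (0.88), Myh4 (0.88) and Sim1 (0.88) to Rag2. These values describe 24 libraries that share populations and pools.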

How the data were processed

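RNA of the sorted cells was sequenced as rRNA-depleted stranded libraries, paired-end, 50 bp. The deposited files hold raw counts per gene symbol and a gene length, per the file headers. The submitters' processing notes name build mm9 and, with no role given, TopHat2 2.0.9, Bowtie 1.0.0, Trimmomatic 0.33, FastQC, R 3.1.2, featureCounts and edgeR. The strand and multi-mapping settings of counting are not given in the sources used here. A deposited table of normalized signal for 12186 genes holds 6 of the 10 genes (not Il7r, Dntt, Rag1 or Rag2) and served as 1 alternative (limma, log2 of the value plus 1). No column was left unused.

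Counts were joined by symbol and analysed with edgeR 4.0.16 and limma 3.58.1 in R 4.3.3. Genes were kept by filterByExpr (least count 10), scaled by TMM, and fitted in a single quasi-likelihood model of 9 group means over 24 libraries (15 residual degrees of freedom, common dispersion 0.466). Benjamini-Hochberg adjustment covered all 21456 genes in each of 15 two-sided comparisons, with a threshold of 0.05. Errors after ± are standard errors of the log2 change, and 95% intervals use the total degrees of freedom. The fitting code was run on simulated counts for KO against Het in HSC alone. Those counts had less spread than these data, and only genes of many counts were changed. That run cannot show how the model performs for genes of few counts or in the other comparisons. No 2 libraries of a group agreed within sampling noise (chi-square per degree of freedom of at least 18.9).

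The 10 genes and all lists were chosen with earlier results of these data known. All 10 are named. From the other lists, up to 4 genes past the threshold between KO and Het are named, and genes named between populations or against Sham were picked as examples after their values were seen. For each of the 10 genes the 3 most alike were taken among 12596 with a mean of at least 1 CPM, predicted genes, clones and small RNAs passed over. Some results are not reported here. Car1 was picked as an example after its values were seen. Positions come from the GENCODE annotation of mm9, and promoters from RefSeq (GRCm38.p6), placed in mm9 by exact match. Alternatives were RLE scaling, other filters on low counts, DESeq2 1.42.0, limma-trend, replicate blocks, fewer libraries and other controls.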

Additional observations from a re-analysis of the deposited data

How the results depend on the processing

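The alternatives left the 5 population calls of MPP2 against HSC and the 5 against MPP1 in place, except Il2rg against HSC without HSC Sham 2_3 (adjusted p = 0.0587), Notch1 against MPP1 without MPP2 Sham 2_3 (0.0944) and Igj against MPP1 by limma-trend (0.0529). The calls between KO and Het did not hold as well. In MPP2 Satb1 passed in 10 of 17 alternatives (adjusted p 4.57e-05 to 0.387, log2 -3.10 to -1.29) and Il2rg in 10 of 17 (0.00609 to 0.51, log2 0.87 to 1.34). The number of the 10 genes called, 2, was 0 to 2 with 1 library left out, 0 in the authors' deposited table, and 1 each without HSC KO 1 and HSC Het 2_3 (the 2 HSC libraries with the fewest detected genes), with the mean of Het and Sham as control, and with MPP2 libraries alone. Satb1 lost its call without MPP2 KO 1 (log2 -2.65), KO 2_3 (-2.50) or Het 2_3 (-1.29), and Il2rg without KO 1 (0.87), KO 2_3 (1.23), Het 1 (1.31), Het 2_3 (1.25) or Het 4 (0.94). The cause was not tested.

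The 3 libraries that stand apart (MPP2 Het 2_3, HSC Het 1, MPP1 Het 1) are all Het. MPP1 Sham 2_3 was kept, with a granulocyte list sum of 1162 CPM against 53.6 CPM in MPP1 Sham 4. Without MPP2 Het 2_3 alone, Ltb missed the threshold between KO and Het in MPP2 (adjusted p = 0.124). Without all 3 libraries it passed (2.10, adjusted p = 0.0227). The count between KO and Sham, 0 in HSC and MPP2, was then 1 in each (Satb1 -1.36, 0.0227; Notch1 1.23, 0.00373), and 2 of the 10 had a KO change in MPP2 that differed from that in HSC (Ltb 2.76, 0.0159; Notch1 1.55, 0.0104). It was also 1 in HSC with DESeq2 (Igj 3.46, 0.0211) and the deposited table (Igj 2.64, 0.0324), 1 in MPP2 with DESeq2, and 0 to 1 in MPP2 with 1 library left out (1 without KO 4).

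Signs of values that passed no test turned as follows, on the log2 scale of KO minus Het. Without the 3 libraries these were Il7r in HSC (0.92), Notch1 in MPP1 (-0.19), and in MPP2 Il7r (0.071), Dntt (1.71), Notch1 (0.89) and Ikzf1 (0.038). Without the HSC pair they were Dntt (0.10) and Rag2 (0.30) in HSC. The deposited table turned Satb1 in MPP1 (0.029) and Notch1 in MPP2 (0.081), the mean control Notch1 in MPP1 (-0.051) and MPP2 (0.56), and limma-trend Notch1 (0.20) and Ikzf1 (0.011) in MPP2. Ikzf1 in MPP2 was 0.0016 with no filter and 0.028 with MPP2 libraries alone. With 1 library left out the ranges were -1.67 to 0.92 for Il7r and -0.0064 to 0.35 for Ikzf1 in HSC, -0.19 to 0.38 for Notch1 in MPP1, and in MPP2 -1.92 to 0.071 for Il7r, -7.48 to 1.71 for Dntt, -0.48 to 0.89 for Notch1 and -0.14 to 0.099 for Ikzf1.

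With the replicate number as a block, the count in MPP2 stayed at 2 (Satb1 -2.47, adjusted p = 0.00866; Il2rg 1.16, 0.0124), and Notch1 (0.031) and Ikzf1 (0.013) changed sign. Whether the numbers pair KO with Het was not settled. Deviations of same-numbered KO and Het libraries of a population correlated at -0.257 to 0.449, over 0.1 in 5 of 9 pairs. Of 18 libraries, each with 3 candidates, 11 correlated best with their own number. In MPP2 the same-numbered values were 0.036 (1), 0.449 (2_3) and 0.419 (4). Those of KO 2_3 with Het 4 and KO 4 with Het 2_3 were -0.419 and -0.439. Across populations of a genotype, same-numbered libraries deviated together in KO (0.178 to 0.755, over 0.1 in 9 of 9 pairs). In Het 7 of 9 pairs were over 0.1. In Sham 2 of 6 were, but this share cannot be set beside the others. The 2 Sham libraries of a population mirror each other around their mean, so each Sham value enters 2 times. A block of genotype and number, chosen after seeing the data, kept 5 and 5 of the 10 genes called for MPP2 against HSC and MPP1 and 0 for MPP1 against HSC and for the 3 differences of KO change. Over all genes it raised the calls from 128 to 600 for MPP1 against HSC, and for the KO change from 7 to 118 in MPP2 minus HSC and from 0 to 9 in MPP2 minus MPP1. RLE scaling moved the median of all genes by -0.068 to 0.014 (log2). The levels of Dntt, Rag1, Rag2 and Il7r often rest on few counts. They also spread between libraries of a group, as Dntt did in MPP2 Het at 14, 5416 and 3 counts. The part of depth in their wide errors was not tested.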
